A study of Arabidopsis thaliana with 4 samples.

Results

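SDC and 8 other loci listed as strongly de-repressed in the ddcc mutant were followed in RNA-seq libraries of whole Arabidopsis thaliana seeds. The loci were a fixed list of gene codes, SDC, QQS, FWA, ATMU1, ROMANIAT5, PUM11, AT3G29639, AT3G01345 and AT3G29080, put together with their values in these libraries in view. Of the 9 loci, 7 had a row among the 27416 protein-coding genes of the deposited tables. The Mutator-type transposon ATMU1 (AT4G08680) and the LTR retrotransposon ROMANIAT5 (AT3G11970), both annotated as pseudogenes, are not analysed here. Seeds of Col 0 wild type and of the ddcc mutant in the same Col 0 background, both grown in a greenhouse, were collected when their embryos were at the post-mature green stage, late in seed development. The mutant is named for the methyltransferase genes DRM1, DRM2, CMT2 and CMT3, and its alleles are not given in the labels. Each genotype had 2 libraries, called biological replicates in the labels, with no further word on whether plants were pooled.

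DNA methylation in plants occurs at cytosines in CG, CHG and CHH contexts, where H is any base but G. Small RNAs guide DRM2 to its targets in all contexts, while CMT3 and CMT2 keep up CHG and CHH methylation together with a histone mark, and MET1 copies CG methylation. SDC encodes an F-box protein, the part of an SCF ubiquitin ligase that selects the protein to be tagged, and is the classic gene held silent by non-CG methylation of tandem repeats in its promoter. FWA encodes a homeodomain transcription factor that delays flowering when active. It is silent in vegetative tissue through methylated repeats around its start and is expressed from the maternal copy in endosperm. QQS is an orphan gene that alters starch content and varies in methylation among wild plants. PUM11 encodes a Pumilio-type RNA-binding protein, a family that binds target mRNAs and limits their use. AT3G29639, AT3G01345 and AT3G29080 encode uncharacterized proteins.

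The bases before the annotated start of SDC are shown because they hold the repeats for which the gene is known. All sequences are from the RefSeq reference TAIR10.1, whose nuclear chromosomes are those of TAIR10, and read 5′ to 3′ on the strand of the gene. SDC lies on the plus strand at chr2:7682162-7684083 with 3 exons, and the 250 bases before its start are chr2:7681912-7682161. Capitals mark the tandem repeat.
SDC: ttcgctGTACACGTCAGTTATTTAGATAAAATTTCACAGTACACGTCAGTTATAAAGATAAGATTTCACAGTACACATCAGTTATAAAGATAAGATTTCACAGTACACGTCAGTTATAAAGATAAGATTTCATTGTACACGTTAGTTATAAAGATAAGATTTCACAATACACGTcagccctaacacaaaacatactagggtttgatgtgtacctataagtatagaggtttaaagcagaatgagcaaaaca

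The repeat ran from position -244 to position -77 before the start, the last base before it being position -1, in steps of 32 bases, with 5 whole copies and a last piece of 8 bases. Bases 1 step apart were identical at 91.9% of 136 compared positions. Below, the whole copies are aligned, and capitals mark bases unlike the majority of the copies.
SDC copy 1: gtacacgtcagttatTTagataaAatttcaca
SDC copy 2: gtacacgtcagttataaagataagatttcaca
SDC copy 3: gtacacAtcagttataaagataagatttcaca
SDC copy 4: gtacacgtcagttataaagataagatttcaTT
SDC copy 5: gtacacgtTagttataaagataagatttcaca
Copy 2 equalled the majority, and the other copies differed from it by 1 to 3 bases. Counted on both strands, the stretch marked above held 10 cytosines in CG, 14 in CHG and 24 in CHH context. Thus 79.2% of its cytosines lay outside CG sites.

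FWA is shown as the other listed gene with known promoter repeats. It lies on the plus strand at chr4:13038360-13042464 with 10 exons, and the 250 bases before its start are chr4:13038110-13038359. Capitals again mark the tandem repeat.
FWA: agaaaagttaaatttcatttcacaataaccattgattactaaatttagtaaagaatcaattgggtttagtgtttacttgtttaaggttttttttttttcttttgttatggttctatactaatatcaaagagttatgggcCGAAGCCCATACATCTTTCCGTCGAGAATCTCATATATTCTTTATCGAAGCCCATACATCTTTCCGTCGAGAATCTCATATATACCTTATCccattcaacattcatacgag
Here 2 copies at a step of 45 bases spanned positions -111 to -21, identical at 95.7% of 46 compared positions. The stretch held 11 cytosines in CG, 2 in CHG and 21 in CHH context, with 67.6% outside CG sites. A search from 1500 bases before to 500 bases after each start, with steps of up to 400 bases, found in FWA a longer repeat with a step of 211 bases, from position -25 to 309 and 96% identical. The same search found in QQS a step of 31 bases from position 4 to 70, with 97.2% identity over 36 compared bases. In SDC it gave a step of 32 bases from position -259 to -77, 90.1% identical over 151 compared bases. The SDC repeat thus begins before the bases shown. PUM11 had a stretch from position -869 to -793 (88.6% over 35 compared bases) and AT3G29639 from -276 to -218 (87.9% over 33). In AT3G29080 and AT3G01345 the best stretches compared 22 and 10 bases. Genes outside the list were not searched this way.

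The genes with the largest differences after SDC had no comparable repeat before their start. AT3G29639 lies on the minus strand at chr3:11478633-11480033, and AT3G01345, a gene with 1 exon, on the plus strand at chr3:129138-130749. The 250 bases before the start of AT3G29639 (chr3:11480034-11480283) and the 143 bases between the starts of AT3G01345 and of AT3G01340 on the other strand (chr3:128995-129137) are shown for contrast, with CG sites in capitals.
AT3G29639: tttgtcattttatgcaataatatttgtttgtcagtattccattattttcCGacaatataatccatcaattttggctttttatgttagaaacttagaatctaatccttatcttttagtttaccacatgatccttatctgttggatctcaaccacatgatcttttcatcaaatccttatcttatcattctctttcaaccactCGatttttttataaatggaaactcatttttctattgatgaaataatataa
AT3G01345: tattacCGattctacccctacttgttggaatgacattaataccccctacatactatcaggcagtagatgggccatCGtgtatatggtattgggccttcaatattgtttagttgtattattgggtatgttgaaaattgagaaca
Each of these sequences holds 2 CG sites. QQS lies at chr3:12349047-12349933, PUM11 at chr4:5631298-5633779 and AT3G29080 at chr3:11069352-11071376, all on the plus strand. The models of PUM11 and AT3G29080 hold coding exons only, so their windows start at the coding start.

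The values are the authors' normalised read counts, not divided by gene length. Genes other than the listed loci were compared with limma on log2 values across all genes and called where p, adjusted after Benjamini and Hochberg, was under 0.05. Reads behind them were recovered from the values. The ddcc libraries held 1122934 (replicate 1) and 1166635 (replicate 2) of them, the wild-type libraries 3416071 (replicate 1) and 1292023 (replicate 2). The source name of wild-type replicate 2 says ddcc while its other labels say wild type. That library had 39.59 for DRM2, beside 39.25 in wild-type replicate 1 and 4.851 and 8.334 in ddcc, and it is treated as wild type. DRM2 was lower in ddcc, with a log2 difference of -2.36 (SE 0.393, limma adjusted p = 0.00347), a call lost when any 1 library was left out (adjusted p 0.0635 to 0.451). DRM1 had no read in any library, and CMT2 and CMT3 had 2 reads each in ddcc against 1 and 8 in wild type. The 4 seed maturation markers CRA1, CRU3, OLEO1 and SESA3 took 4.16% to 4.67% of the reads in every library. As normalised read counts, they summed to 56960 and 62500 in ddcc against 84780 and 70970 in the wild type. On that scale all 4 were lower in ddcc (median log2 difference -0.54), with none called and 1 at an unadjusted p under 0.05 (limma). The totals of all genes on that scale were also lower in ddcc, at 1325381 and 1410907 against 1815256 and 1705082 in the wild type. The part of these totals in the marker differences was not tested. The 4 silique and flower markers had 4 to 31 reads per library, with FUL and SHP2 at 0 reads throughout. The 4 endosperm markers took 1.79% and 2.29% of the ddcc reads but 0.771% and 0.924% of the wild-type reads. Nearly all of these were from EPR1, an extensin-like gene of the endosperm (23670 and 32210 in ddcc libraries against 13960 and 15730 in the wild type, adjusted p = 0.15). The mannanase gene MAN7 was higher in ddcc (log2 difference 2.30, SE 0.347, adjusted p = 0.00185), AGL62 was not called, and ZOU had no read. The MAN7 call was lost without either ddcc library and in limma without a variance trend (adjusted p = 0.0691 without the trend). EPR1 passed with quantile normalisation, equal nuclear totals or robust moderation (limma adjusted p 0.00307 to 0.0222). The part of seed tissue make-up in the values of the listed loci was not tested. In whole seeds, more cells that express a gene cannot be told apart from more RNA per cell.

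SDC stood at 1644 and 1897 in the ddcc libraries and at 0.88 and 2.523 in the wild-type libraries. The groups did not overlap, and SDC went from near the detection limit to the 72nd and 65th highest value among all genes of ddcc replicates 1 and 2, or the 77th and 68th per kilobase of exon. In wild type it ranked 16369 and 14091. The reads were 2962 in ddcc and 4 in wild type. After correction with the relative library sizes behind the normalised values, the ratio was 1168. Its exact binomial 95% interval of 455.7 to 4289 covers counting error only. The read totals were not used for this correction, here or for the other ratios and floors. On the scale of log2(value + 1.56), where 1.56 is the pseudocount, the difference was 9.13, the largest of the 15780 genes tested. The ddcc libraries themselves differed by a ratio of 1.15 (replicate 2 over replicate 1, interval 1.07 to 1.24). Of the 74 genes other than the listed loci with a like number of ddcc reads, within a factor of 1.5, 64.9% had a smaller difference between the ddcc libraries.

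AT3G01345 had 232.5 and 237 in ddcc against 1.341 and 3.774 in the wild type, so its ddcc libraries lay close together and far above both wild-type libraries. Its reads were 393 against 6, a ratio of 103.3 (interval 47.04 to 283.2). AT3G29639 had 140.8 and 199.1 in ddcc and no read in wild type. Set against a floor of 3 reads over the wild-type group, it was at least 149.3-fold higher in ddcc. Its ddcc libraries were further apart than those of the other strongly raised loci, by a ratio of 1.42 (interval 1.12 to 1.81). In 88.9% of 1310 genes of like depth the ddcc libraries lay closer together.

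PUM11 had 66.09 and 65.33 in ddcc and no read in wild type, from 110 ddcc reads, at least 57.83-fold higher against the same floor. AT3G29080 had 55.37 and 48.52 in ddcc, again with no read in wild type, from 87 ddcc reads, at least 45.74-fold higher. These loci therefore had separate groups, and 3 of the 7 measured loci had no wild-type read at all. The floor of 3 reads corresponds to a normalised read count of 1.14 in wild type. Folds against it leave out the counting error of the ddcc reads and are not confidence limits like the intervals given for SDC and AT3G01345.

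QQS and FWA did not follow the others. QQS had 11.67 and 7.427 in ddcc against 2.302 and 0.09279 in the wild type. The groups did not overlap, but the values rest on 16 ddcc reads and 4 wild-type reads, and the small value of wild-type replicate 2 stands for no read. The ratio of reads was 6.309, with an interval of 2.035 to 25.93. FWA had 1.303 and 4.693 in ddcc against 1.452 and 2.574 in the wild type, with 5 reads in each genotype. Its groups overlapped, and the ratio of reads was 1.577 with an interval of 0.363 to 6.853. No difference in FWA was detectable at this depth, so these seeds do not bear out the description as strongly de-repressed for FWA, and for QQS it rests on few reads. Whether the FWA reads came from endosperm cannot be told from whole seeds.

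**Figure D1:**
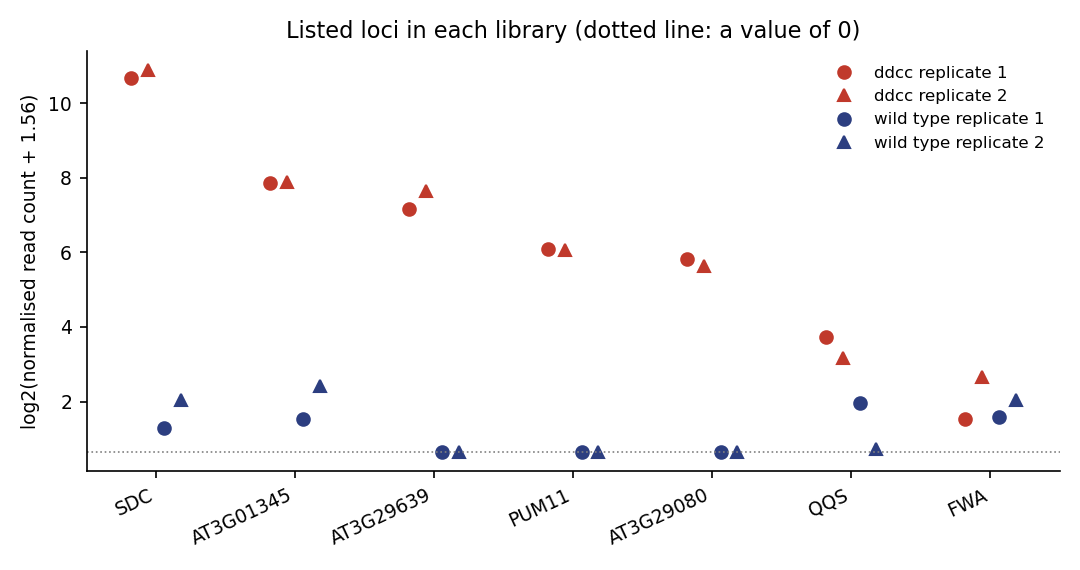
Normalised read counts of the 7 measured loci in each library, plotted as log2(value + 1.56), with circles for replicate 1 and triangles for replicate 2. SDC, AT3G01345, AT3G29639, PUM11 and AT3G29080 lie far above wild type in both ddcc libraries, QQS lies above it by less, and the FWA points of the genotypes overlap.

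Across the 7 measured loci, both ddcc libraries lay above both wild-type libraries in 6, where 25.7% of all genes tested did. Without regard to direction, 51% of all genes tested had groups that did not overlap. In limma, 5 of the 7 were called higher, where 3.03% of all genes tested were. The loci were chosen on this contrast, so these counts describe the choice and carry no evidence. Their median log2 difference was 5.43, beside 0.0172 for all genes tested. By this difference SDC ranked 1, AT3G29639 ranked 2 at 6.76, AT3G01345 ranked 3 at 5.91, PUM11 ranked 4 at 5.43 and AT3G29080 ranked 5 at 5.09. QQS ranked 161 at 2.11 and FWA ranked 5460 at 0.26. No threshold was part of the choice. Of the 5 genes outside the list nearest to SDC in profile, described below, EXPA2 had the largest difference, at 4.55.

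The 7 loci together took 0.162% of the reads in ddcc replicate 1 and 0.174% in ddcc replicate 2. In wild type they took 0.000351% and 0.000542%. SDC alone made up 76.4% and 77.1% of their reads in the ddcc libraries. Compared per kilobase of exon, where levels of different genes can be set side by side, SDC had 1090 ± 110 normalised read counts per kilobase in ddcc (SD, n = 2). AT3G29639 followed with 180 ± 43.6 and AT3G01345 with 146 ± 1.97, and these neighbours in the order did not differ beyond their spread. PUM11 with 39.3 ± 0.322 and AT3G29080 with 38.8 ± 3.62 were also within their spread of each other. QQS had 13.9 ± 4.37 and FWA 1.21 ± 0.971. In wild type the means of the 7 lay between 0 and 1.74 per kilobase, and single libraries reached 3.351 for QQS in replicate 1 and 2.341 for AT3G01345 in replicate 2. With so few reads their order in wild type cannot be given.

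Without the wild-type library with the ddcc source name, the log2 difference was 9.50 for SDC and 6.35 for AT3G01345. AT3G29639, PUM11 and AT3G29080 are at 0 in both wild-type libraries, so leaving out either one cannot change their difference. QQS moved to 1.497 and FWA moved to 0.49. With the other wild-type library left out instead, SDC was at 8.76, AT3G01345 at 5.47, QQS at 2.72 and FWA at 0.03. FWA turned to -0.30 without ddcc replicate 2 and to -0.03 after quantile normalisation.

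**Figure D2:**
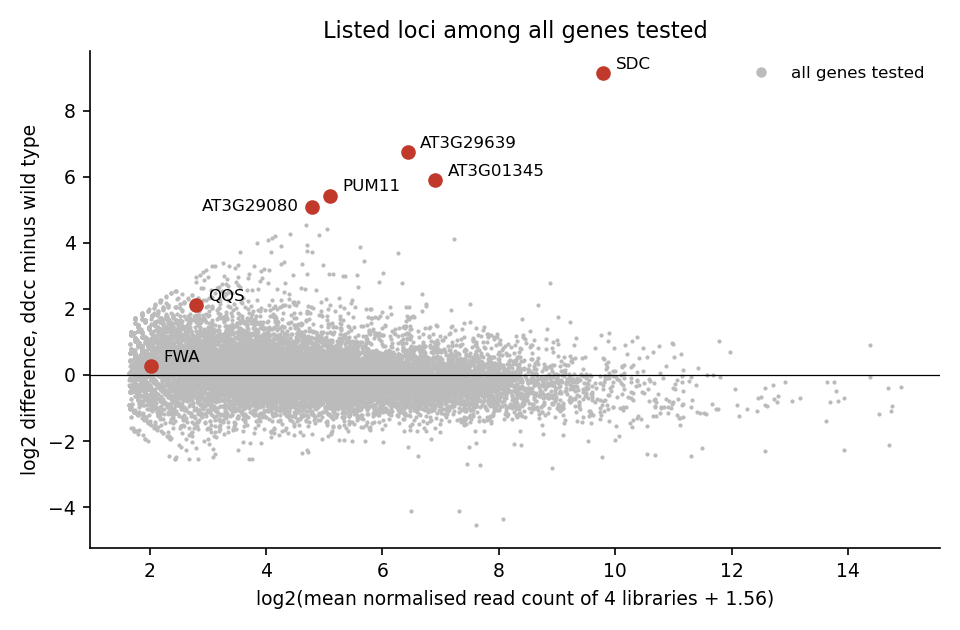
Log2 difference between ddcc and wild type against the mean level of each gene in the 4 libraries, with the 7 measured loci in red and all genes tested in grey. The 5 strongly raised loci stand above the grey cloud, with SDC at 9.13, while QQS lies at its upper edge and FWA inside it.

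Genes with profiles most like that of SDC were found by the Euclidean distance between log2 values centred on each gene's own mean, over the 4 libraries and 12492 genes with a mean normalised read count of at least 7.82 in the higher genotype. Among the listed loci the distance to SDC was 2.44 for AT3G29639, 3.22 for AT3G01345, 3.74 for PUM11, 4.08 for AT3G29080, 7.18 for QQS and 8.89 for FWA. The nearest genes outside the list were the expansin gene EXPA2 at 4.72, AT5G26270 at 4.94, AT2G19850 at 4.96, and the xyloglucan endotransglucosylase genes XTH31 at 4.99 and XTH19 at 5.04. Expansins and these enzymes act on the cell wall. AT5G26270 encodes an uncharacterized protein and AT2G19850 is annotated as a transcription repressor. EXPA2 had 55.22 and 40.22 in ddcc against 1.124 and 0.04764 in the wild type, AT5G26270 had 60.06 and 50.97 against 1.575 and 1.367, and AT2G19850 had 38.96 and 38.72 against 1.124 and 0.04764. XTH31 had 33.03 and 31.5 in ddcc against 0.5357 and 0.02415, and XTH19 had 28.45 and 33.74 against 0.5357 and 0.02415. All of them had separate groups, with 1 to 4 wild-type reads each. Their ratios of reads, corrected as for SDC, were 63.1 (interval 16.9 to 530) for EXPA2 and 36.7 (13.9 to 137) for AT5G26270. The ratios were 51.3 (13.6 to 432) for AT2G19850, 85.2 (14.7 to 3430) for XTH31 and 82 (14.1 to 3300) for XTH19. They were picked for this likeness, so their separate groups follow from the choice and no test is given for them. Because SDC had the largest log2 difference, this distance mainly orders genes by the size of their own log2 difference. It rests on the contrast on which the loci were chosen. Whether these genes share regulation with SDC was not tested.

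Over the whole data set, 15780 genes were tested and 1023 (6.48%) called. In ddcc, 478 (3.03%) of them were higher and 545 (3.45%) were lower. The higher genes made up 46.7% of the calls, 58.1% after quantile normalisation and 87.4% after scaling each library to the same sum over nuclear genes, which moved the median of all genes to 0.37.

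The nearest gene with a row in the tables on each side of a locus, and every overlapping gene, were examined next. Annotated pseudogenes have no row and may lie nearer. Of these 16 flanking or overlapping genes, 12 were tested, 1 was higher and 1 was lower in ddcc, 16.7% called where 6.48% of all genes were. Their median log2 difference was -0.26. The higher gene was AT2G17695, annotated as an outer envelope protein, which lies on the opposite strand and shares 1303 bases with SDC. It had 178.8 and 102.3 in ddcc against 33.67 and 29.23 in the wild type, a log2 difference of 2.05 (SE 0.296, adjusted p = 0.00127). Its groups were separate. Its higher ddcc value was in replicate 1, while that of SDC was in replicate 2. The mean increase of AT2G17695 was 109 normalised read counts, or 6.17% of the increase of SDC. The labels do not state stranded counting. Reads of the shared bases therefore cannot be assigned to either gene, and the call of AT2G17695 is uncertain in origin. The call was lost without either ddcc library and without a variance trend (adjusted p up to 0.451). On its other sides SDC had AT2G17680 with no read and the kinase gene STY8 (43.47 and 32.9 in ddcc libraries against 40.43 and 38.36 in the wild type, adjusted p = 0.941).

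The lower gene was AT3G01340, a WD40 repeat gene on the opposite strand, whose start lies next to that of AT3G01345 with 143 bases between them. It had 40.14 and 39.93 in ddcc against 83.58 and 76.69 in the wild type, a log2 difference of -0.97 (SE 0.263, adjusted p = 0.0406). The groups were separate and opposite in direction to AT3G01345. This call was lost in 8 of 14 alternatives, among them quantile normalisation, equal nuclear totals and the removal of any 1 library (adjusted p 0.0274 to 0.459 over all 14). On its other side, the transporter gene AT3G01350 had 21.35 and 25.3 in ddcc against 33.04 and 21.61 in the wild type (adjusted p = 0.809).

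Around PUM11, the neighbours SUB1, a calcium-binding protein gene (log2 difference -0.35, adjusted p = 0.544), and the receptor kinase gene AT4G08850 (0.67, adjusted p = 0.331) were not called. Around AT3G29080, neither AT3G29075, a glycine-rich protein gene (0.53, adjusted p = 0.522), nor PME31, a pectin methylesterase gene (-0.47, adjusted p = 0.29), was called. AT3G29639 has AT3G29638, a gene with 2 ddcc reads and no wild-type read that was below the level tested, and, 47722 bases away, PMAT2, an acyltransferase gene (-0.72, adjusted p = 0.433). FWA overlaps the mismatch repair gene MSH3 by 10 bases. MSH3 had 6.299 and 21.23 in ddcc against 9.332 and 11.74 in the wild type (adjusted p = 0.903), and SLK1 (-0.33, adjusted p = 0.545) and AT4G25550 (-0.51, adjusted p = 0.297) on either side were not called. The nearest genes with a row on either side of QQS, AT3G30705 at 77320 bases and GDU6 at 2538 bases, had no read in any library.

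**Figure D3:**
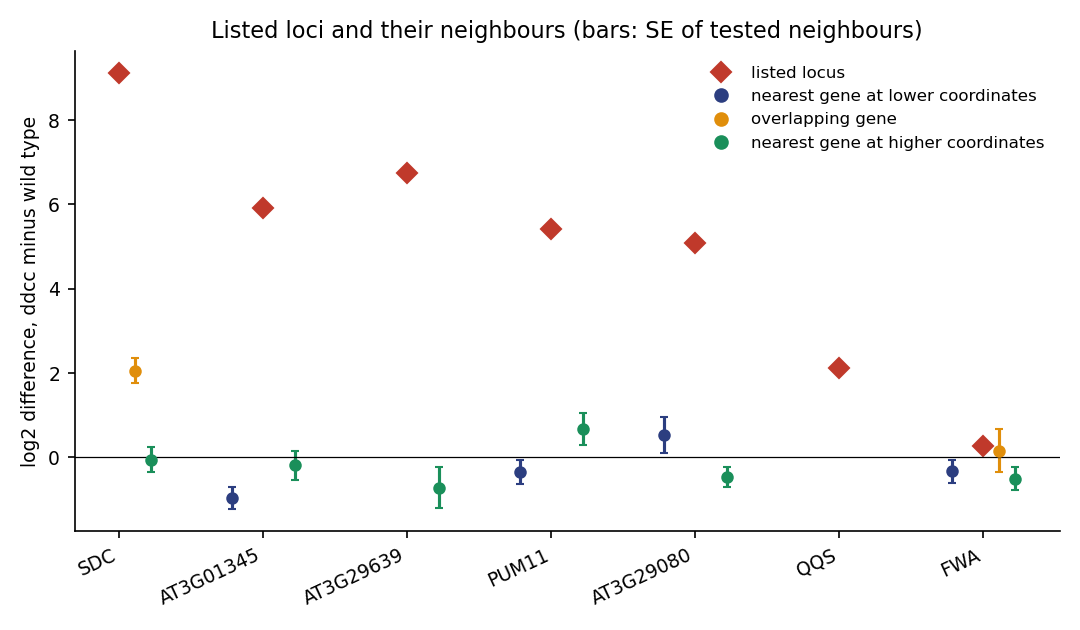
Log2 difference between ddcc and wild type for each measured locus (diamonds) and its tested neighbours (circles, bars give the SE of the limma fit). The overlapping gene AT2G17695 at SDC lies at 2.05, and the other tested neighbours lie between -0.97 and 0.67.

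Relatives in sequence were looked for because reads of near copies can be exchanged and because they belong to the families of the loci. Matches of at least 100 bases to the transcripts of the measured loci overlapped, in whole or in part, 22 other loci of the tables. Of these, 13 had no read, 6 were tested and 1 was called higher (16.7%, beside 6.48% of all genes), with a median log2 difference of 0.41. The called gene was PUM9, another Pumilio gene, whose longest match to PUM11 was 75.6% identical over 250 bases. PUM9 had 6.03 and 9.547 in ddcc and no read in wild type, from 13 ddcc reads, at least 6.83-fold higher against the floor (limma adjusted p = 0.0253). The call was lost without any 1 library and without a variance trend, in 5 of the 13 alternatives that tested the gene (adjusted p 0.00755 to 0.451). PUM7, PUM8 and PUM10, the other matches of PUM11, had no read.

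SDC matched no locus at 95% identity or more. Its F-box and DUF295 relatives AT1G44080, AT1G57906, UCL1, AT1G65760, AMR1 and AT4G35733 had no read in any library. UCL1 is the longest of these matches, 66.4% identical over 843 bases. The kinase gene SK42 ends at chr1:21436329, inside a match of SDC (chr1:21436265-21436559) that lies wholly within AT1G57906. SK42 was tested and not called (log2 difference 0.83, adjusted p = 0.241). AT3G01345 matched AT2G06845 at 74.7% over 1604 bases, and that gene had 1 read in ddcc and 3 in wild type. Its relatives AT5G28919 and AT5G28920, which overlap each other and share nearly all reads, were expressed in both genotypes. AT5G28919 had 223.2 and 247.8 in ddcc against 210.8 and 148.5 in the wild type (log2 difference 0.41, adjusted p = 0.351), and AT5G28920 had an adjusted p of 0.355. Unlike AT3G01345, they had 507 and 508 reads in wild type.

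AT3G29639 was the measured locus with near copies of at least 95% identity. It matched AT5G11430, a gene with a transcription elongation factor domain, at 94% over 587 bases and at 95.2% over 126 bases. It also matched a region overlapping AT3G29631 at 95.6% over 180 bases. AT5G11430 had 20.15 and 22.91 in ddcc against 14.49 and 19.53 in the wild type (log2 difference 0.33, adjusted p = 0.671), while AT3G29639 had no wild-type read. How reads with several mapping places were treated was not stated in the labels, so the origin of the AT3G29639 reads within these copies is uncertain. QQS, FWA and AT3G29080 had no match of 100 bases.

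A list of other genes known to be imprinted or silenced by methylation held too few measurable genes to be set apart from the rest. Of its 13 genes, 4 had no read and 5 were tested, with 0 called, where 6.48% of all genes tested were, and 1 at an unadjusted p under 0.05 (limma), and a median log2 difference of 0.28. BNS, which had the highest mean, had 8.319 and 9.64 in ddcc against 8.045 and 6.717 in the wild type (adjusted p = 0.82). FIS2, the polycomb gene with the unadjusted p under 0.05, had 4.652 and 2.523 in ddcc against 10.38 and 13.05 in the wild type (log2 difference -1.39, adjusted p = 0.125). The imprinted genes PHE1 and HDG9, and EPF2 and SUP, had no read, so these libraries hold no information on them beyond the limit of 3 reads in a group.

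Family members of the listed loci were counted in the same way, beside 6.48% called of all genes tested. Of 25 other Pumilio genes, 10 were tested and PUM9 was the 1 called (10% called, median log2 difference -0.16). Of 15 class IV homeodomain-leucine zipper genes, the family of FWA, 7 were tested and 1 was called (14.3%, median 0.09). HDG3, HDG8 and HDG9 stand both on this list and on that of imprinted genes. This was ANL2, a gene known for its part in anthocyanin accumulation, with 68.62 and 80.86 in ddcc against 42.54 and 21.9 in the wild type (log2 difference 1.24, SE 0.324, adjusted p = 0.0345). The call was lost in 5 of 14 alternatives, among them leaving out wild-type replicate 2 (adjusted p = 0.189). The SCF core genes, through which an F-box protein would act, were all expressed. None of the 4 was called (0 calls, 2 at an unadjusted p under 0.05, limma), and CUL1, the scaffold, had 370.5 and 333.9 in ddcc against 452.6 and 518.1 in the wild type (adjusted p = 0.234).

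Of 629 other genes annotated as F-box proteins, 374 had no read and 146 were tested. None was called higher, where 3.03% of all genes tested were, and 5 (3.42%) were called lower, where 3.45% were. The share called lower was thus close to that of all genes. The median log2 difference was -0.28, beside 0.0172 for all genes. The largest falls were in AT3G12350 (117.5 and 71.91 in ddcc libraries against 274.1 and 196 in the wild type, log2 difference -1.32, SE 0.273, adjusted p = 0.0112), AT2G17020 (-1.25, SE 0.255, adjusted p = 0.0101) and AT1G13780 (-0.96, SE 0.255, adjusted p = 0.0368). Each of these calls was lost when any 1 library was left out.

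Around the start, from 250 bases before to 50 bases after it, a tandem repeat score was computed for 26709 genes. The window was compared with itself shifted by 10 to 120 bases, adding 1 for a match and taking off 2 for a mismatch along the best stretch. SDC scored 103, a score that 9 windows (0.0337%) reached or passed, and FWA scored 40, reached by 120 windows (0.449%). The median of all windows was 9, and PUM11 and AT3G01345 scored 7, AT3G29080 scored 8, AT3G29639 scored 13 and QQS scored 16. Of the 8 other genes with a score of at least 103, 6 were tested, none was called higher and 2 were called lower in ddcc, a count too small to set beside the 3.03% higher and 3.45% lower of all genes. Of the 118 other genes with a score of at least 40, which include these 8, 72 were tested. None was called higher and the same 2 were called lower, 2.78% called beside 6.48% of all genes. The genes that were not tested lay below the level tested.

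The cytosine make-up of the windows differed among the loci. SDC had 16 cytosines in CG, 21 in CHG and 62 in CHH context on both strands, where the medians of all windows were 12, 10 and 71. Its CHG count was higher than in 93.2% of windows, and that of PUM11, 22, was higher than in 94.7%. AT3G29080 had 4 CG, 19 CHG and 93 CHH, its CHH count above 97.6% of windows. AT3G01345, with 89 CHH, lay above 94.7%. QQS had 22 CG, 12 CHG and 83 CHH, and AT3G29639 had 4, 7 and 71. FWA had 20 CG and 4 CHG, its CHG count above 7.54% of windows. Methylation was not measured in these files.

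The loci also lie in different surroundings. Among the protein-coding genes and pseudogenes within 100 kb, annotated pseudogenes, many of them remains of transposons, made up 88.6% around QQS, 65.2% around AT3G29639, 36.4% around PUM11 and 31.9% around AT3G29080. These shares were higher than around 99.7%, 98.3%, 95.2% and 94.4% of 26710 genes, whose median was 3.64%. SDC had 7.69%, and FWA and AT3G01345 had 0%. The nearest annotated pseudogene was 64 bases from AT3G29080 and 341 bases from QQS, but 22148 bases from SDC. Among the other genes tested, 3.28% of the 1557 genes with the highest shares (13% or more) were called higher and 3.4% lower. Of the remaining 14029 genes with a position on a nuclear chromosome, 2.76% were called higher and 3.49% lower. Both shares of higher calls lay near the 3.03% of all genes tested.

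**Figure D4:**
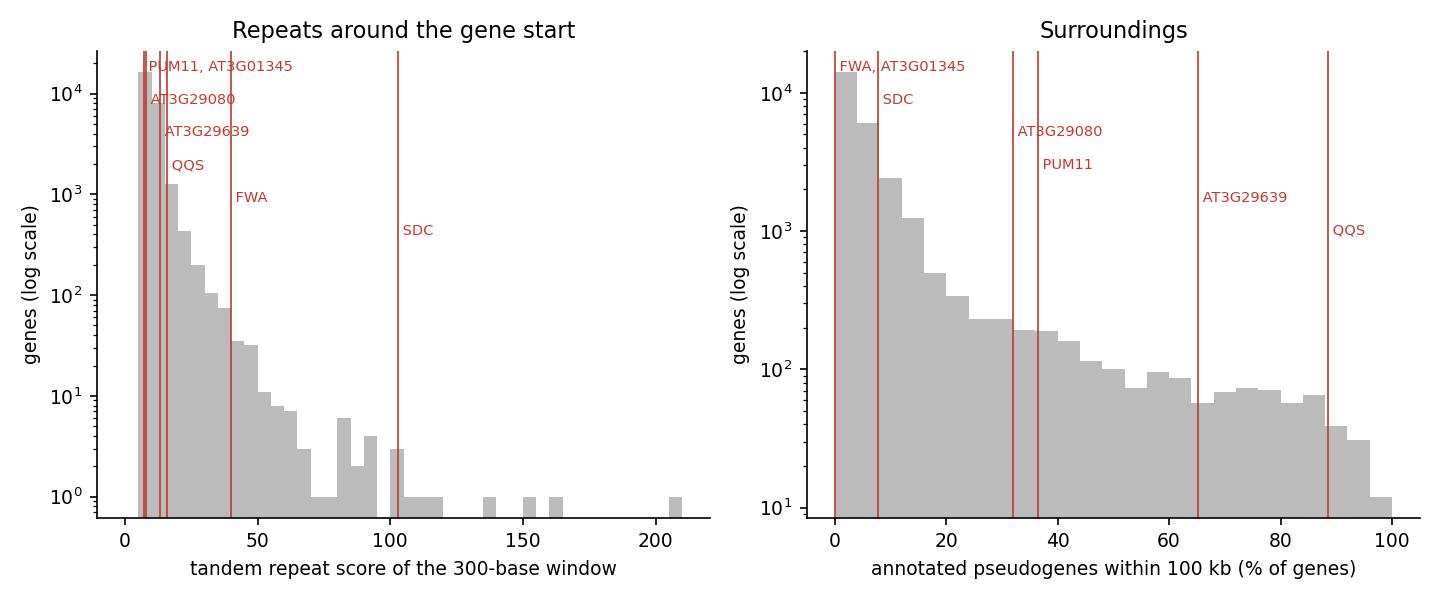
Distribution over genes of the tandem repeat score around the start (left) and of the share of annotated pseudogenes within 100 kb (right), with counts on a log scale and the measured loci as red lines. SDC at 103 and FWA at 40 lie far into the right tail of the repeat score, and QQS at 88.6% and AT3G29639 at 65.2% far into that of the pseudogene share.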

How the data were processed

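Total RNA of whole seeds was amplified from a small input with a NuGEN Ovation kit and sequenced from Illumina TruSeq DNA libraries, per the labels' protocols. Bowtie 0.12.7, edgeR 3.10.5 and the TAIR10 build were used, per the submitters' processing notes. Settings for mapping, counting and strand were not given in the sources used here. Each deposited table gives a signal per gene, a normalised read count that need not be whole. Within each genotype the deposited values had the form that an equalisation of library sizes in a negative binomial model gives, as read from the values themselves. Inverting that step gave whole reads, within 0.01, for 100% of 18481 ddcc and 18429 wild-type value pairs (dispersion 0.0327). These reads gave read totals, exact binomial 95% intervals and a floor of 3 reads over a group. Ratios, their intervals and folds against the floor were corrected with the relative library sizes of that step, not with the read totals. The relative sizes were 0.847 and 0.827 for ddcc replicates 1 and 2, and 1.88 and 0.758 for wild-type replicates 1 and 2. Intervals and floors cover counting error only.

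Genes were tested where their mean reached 1 unit (1.56, which is the mean column total divided by 1e6), with limma 3.58.1 in R 4.3.3 on log2(value + 1 unit), with genotype alone, a variance trend, and Benjamini-Hochberg adjustment over all 15780 genes, called at an adjusted p under 0.05. A log2 difference on this scale understates the change of low genes. P-values set a difference against the spread between 2 libraries a genotype, which limma moderates with that of other genes of like level. The fit and the inversion were tested on simulated data, where changed genes of low level were recovered less often than those of higher level. The loci and gene lists were chosen with earlier results of these data known. The text names the listed loci, the 5 profiles nearest to SDC, all flanking or overlapping genes, the called genes of each small list or else its member with the highest mean, and the 3 largest called F-box changes. Other named genes, the sequence relatives (BLAST+ 2.17.0), the wide repeat search, the split by surroundings and the printed windows were chosen after values were seen. Positions, exons and products came from the TAIR10.1 annotation of the nuclear chromosomes, where 26719 of the 27416 loci were found. The other loci were left out of the comparisons by window, surroundings and exon length. Same-numbered libraries of the genotypes did not deviate together, so the numbers were not used as pairs. Both wild-type tables carry the mark of replicate 2, per the file headers, but their values differ.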

Additional observations from a re-analysis of the deposited data

How the results depend on the processing

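The 1023 calls became 336 with no filter, 1643 with equal nuclear totals and 33 without a variance trend, and 0 to 417 with 1 library left out. The count was 0 without either ddcc library, where limma had 1677 and 1631 genes at an unadjusted p under 0.05, and 417 and 347 without wild-type replicates 1 and 2. In these fits the lone library is assumed to vary like the remaining pair, and genes without reads in that pair show no spread. With a replicate block the count was 1381, and that of F-box genes went from 5 to 9. The deviations of same-numbered libraries correlated at -0.05 over 15780 genes, so they share only a number. Of 98 log2 differences of the measured loci under alternatives, 86 moved by less than the spread between replicates and 12 by more, and 2, both of FWA, changed sign. The 86 include settings that cannot move a difference, namely both filter changes, no variance trend, robust moderation and the replicate block. They also include leaving out a wild-type library for the loci with no wild-type read. Over the 14 alternatives SDC stayed between 7.55 and 9.56, AT3G29639 between 4.49 and 7.75, AT3G01345 between 4.56 and 6.35, PUM11 between 3.23 and 6.41, AT3G29080 between 2.93 and 6.07 and QQS between 0.95 and 2.72. Of 773 values of other named genes, 710 kept their side of the threshold and 63 did not, with no called direction reversed. The 710 include values of genes not called in the main fit, which keep their side wherever few or no genes are called. The named genes that were called were less stable. They kept the call in 6 (AT1G13780 and AT3G01340) to 12 (among them EXPA2) of 14 alternatives, and PUM9 in 8 of 13. AT5G28919 and AT5G28920 were called with equal nuclear totals. The cause of these changes was not tested. Depth limits FWA, QQS and the silent list genes, which have few reads.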
